A study of Mus musculus with 44 samples.

Results

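Single cells from mouse hindlimb muscle were divided by their level of Egr1, a zinc-finger transcription factor of the immediate early response, and the other genes were compared between them. Cells with an Egr1 value of 5 or more on the deposited log2 scale, which corresponds to about 31 fragments per kilobase of transcript (FPKM), are called Egr1-high, and cells under 5 are called Egr1-low. Of the 44 cells in all, 30 were Egr1-high and 14 were Egr1-low. Every cell was a Tomato-positive cell of adult C57BL/6 mice of the genotype Prrx1-CreERT;Tomato, dosed with 2 mg tamoxifen per mouse on each of 3 days. In such mice tamoxifen activates a Cre recombinase expressed from Prrx1, a gene of limb mesenchyme, and the recombinase turns on a red fluorescent reporter. Both sets of cells therefore share strain, genotype, treatment and tissue. The labels name no animals and do not say how many were used. The cells count as 1 sample, so differences between them are descriptions with the spread over cells, and no test was made.

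All the cells passed through the same enzymatic digestion, fluorescent sort and hand picking. No undigested cells were analysed here, so early gene RNA made during dissociation and early gene RNA already present in the muscle cannot be told apart, and the cells are called by their Egr1 level alone.

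Immediate early genes are transcribed within minutes of a stimulus, without new protein synthesis. Growth factors, stretch or injury act through MAP kinases on factors already bound at their promoters, among them serum response factor at CArG boxes and CREB at cAMP response elements. Egr1 protein binds GC-rich sites, and AP-1, formed of Fos, Jun and related proteins, binds a shorter site with a central palindrome. In muscle these genes are known to respond to tissue dissociation with collagenase. Heat shock genes are under separate control, by heat shock factor, and answer protein damage and raised temperature.

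Egr1 had a lowest value of 5.13, a median of 8.20 and a highest value of 11.44 in Egr1-high cells, against 1.25, 2.88 and 4.91 in Egr1-low cells. The cells were selected on these values, which are given as a description. The values nearest the division were 5.13 in cell 30 and 5.77 in cell 31 among Egr1-high cells, and 4.91 in cell 18 and 4.35 in cell 27 among Egr1-low cells. Egr1 was above 0 in every cell.

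Libraries were not independent of each other. Low values were shared between particular cells, and 42 cells fell into 6 blocks of 7 libraries linked by a rank correlation above 0.541, while cells 30 and 44 were in no block. Every block held cells of both kinds, with 3 to 6 Egr1-high and 1 to 4 Egr1-low cells each. Egr1 in an Egr1-low cell amounted to between 0.0724% and 2.41% of the summed Egr1 FPKM of the cells linked to it, with a median of 0.274%, against 2.50% to 98.7% and a median of 12.5% in Egr1-high cells. The cells were divided on Egr1 itself, so the lower shares in Egr1-low cells follow largely from the division. Because low values were shared between linked cells, values under 5 were read with caution. For the leading genes the mean of the 6 differences within blocks is also given. The deposited values had been brought to a nearly shared distribution, so that 1531 to 1540 rows per Egr1-high cell and 1534 to 1540 rows per Egr1-low cell were at 5 or more. Depth per cell is unknown, and less RNA per cell cannot be seen in such values.

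Rows at 5 or more in at least 5 of the 44 cells were compared, 4266 in all, with Egr1 left out. The mean log2 value was at least 2 higher in Egr1-high cells for 77 rows, which is 1.8% of those compared, and at least 2 lower for 87 rows, which is 2.04%. The median difference over all rows was 0.02, with 5th and 95th percentiles of -1.57 and 1.50. With values under 5 set to 5, which removes differences among low values, 61 rows (1.43%) were at least 1 higher and 93 (2.18%) at least 1 lower. Means were higher in the Egr1-high cells of every block for 163 rows (3.82%) and lower for 53 (1.24%). Of the rows at least 2 higher, 17 reached 5 in 0 Egr1-low cells, and of those at least 2 lower, 3 reached it in 0 Egr1-high cells. Such rows passed the filter only through the cells in which they were high, so a difference in that direction was built into their being compared. For no row did the values of the 30 and the 14 cells fail to overlap (0.0% above and 0.0% below).

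The AP-1 subunit Fos stood furthest apart of all rows, by 4.44. Fos had a lowest value of 3.84, a median of 11.31 and a highest value of 14.95 in Egr1-high cells, against 2.71, 6.81 and 9.70 in Egr1-low cells. It was at 5 or more in 29 of 30 and 11 of 14 cells, so Fos RNA was detected in most cells of both kinds and differed in amount. The 1 Egr1-high cell under 5 was cell 24. Averaged within blocks the Fos difference was 3.82, and it ran from 2.31 to 5.34 over the 6 blocks.

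Junb, another AP-1 subunit, and Ier2, an early nuclear protein, separated the cells more by detection. Junb had values of 1.11, 6.97 and 9.11 (lowest, median, highest) in Egr1-high cells, against 0, 3.19 and 6.62 in Egr1-low cells. It was at 5 or more in 23 of 30 and 1 of 14 cells, and its mean was 3.56 higher. Ier2 had values of 3.47, 6.48 and 10.87 in Egr1-high cells, against 1.23, 2.78 and 6.50 in Egr1-low cells, with 21 and 2 cells at 5 or more and a mean 3.56 higher. Only cell 9 among Egr1-low cells reached 5 for Junb, and cells 19 and 27 did so for Ier2. For both genes the Egr1-low median was under 5 and the Egr1-high median above it. In the GENCODE annotation of GRCm38, Fos lies on chromosome 12 (85473890 to 85477273, plus strand), and Junb (84974484 to 84978718) and Ier2 (84661331 to 84662852) on the minus strand of chromosome 8.

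Atf3, a stress-induced partner of Jun proteins, had values of 0, 5.30 and 10.44 in Egr1-high cells, against 0, 1.26 and 4.61 in Egr1-low cells. It reached 5 in 16 of 30 and 0 of 14 cells and was 3.23 higher. Fosb reached 5 in 7 and 0 cells and was 2.37 higher. Both genes passed the filter on low values only through Egr1-high cells. Jun reached 5 in 27 of 30 and 7 of 14 cells and was 1.84 higher, by a median of 6.84 against 4.85. The remaining AP-1 members were closer, with differences of 0.66 for Jund, 0.66 for Fosl2 and -0.65 for Mafk. Fosl1, Maff and Maf were measured and did not pass the filter.

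In the AP-1 list 4 of 8 members compared were at least 2 higher, where 1.8% of all rows were. At least 2 lower were 0, where 2.04% of all rows were. The median difference was 2.10 over these 8 and 0.68 over the 11 measured. The 4 at least 2 higher were Fos and Junb, and Atf3 and Fosb, whose direction the filter had fixed. Fos, Junb and Jun had the higher mean in every block, where 3.82% of all rows did. No member had the lower mean in every block, where 1.24% of all rows did. With values under 5 set to 5 the median of the list was 0.74, and Fos was 4.10, Junb 1.84, Atf3 1.23 and Jun 1.19 higher. These lists were drawn up with earlier results of these data known.

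Among other immediate early transcription factors, Ier2 and Nr4a1 were the 2 of 7 compared that were at least 2 higher, where 1.8% of all rows were. Nr4a1, an orphan nuclear receptor, had values of 0, 3.99 and 11.39 in Egr1-high cells, against 0, 1.12 and 6.997 in Egr1-low cells. It reached 5 in 12 and 1 cells and was 2.96 higher, with the higher mean in 5 of 6 blocks. Most Egr1-high cells thus lay under 5 for Nr4a1. The Krüppel-like factors of this list differed by less than 1, at 0.31 for Klf4, 0.54 for Klf6, 0.74 for Klf10 and 0.10 for Klf2, and Myc differed by -0.23. Of the relatives of Egr1, Egr2 reached 5 in 2 and 0 cells and did not pass the filter. Nor did 9 other members, among them Nr4a2, Nr4a3, Srf and the EGR corepressors Nab1 and Nab2. Egr3 and Egr4 are not analysed here.

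Of 5 early genes of mRNA decay and growth restraint compared, Zfp36 and Btg2 were at least 2 higher, where 1.8% of all rows were, with a median difference of 1.25 over the 5 and of 0.38 over the 8 measured. Zfp36, which encodes tristetraprolin and speeds the decay of AU-rich mRNAs, had values of 2.66, 7.99 and 10.97 in Egr1-high cells, against 1.73, 5.44 and 8.08 in Egr1-low cells. It reached 5 in 27 of 30 and 8 of 14 cells and was 2.04 higher. Btg2, an antiproliferative cofactor of mRNA deadenylation, had values of 0.60, 5.57 and 10.71 in Egr1-high cells, against 0.94, 1.60 and 8.20 in Egr1-low cells. It reached 5 in 16 and 1 cells and was 2.66 higher, though Btg2 in cell 6, an Egr1-low cell, stood above the Egr1-high median. Zfp36l1, a relative of Zfp36, was 1.25 higher, while Tob2 and Zfp36l2 differed by 0.35 and 0.09.

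The dual-specificity phosphatase Dusp1, which switches MAP kinases off, was at 5 or more in 21 of 30 and 7 of 14 cells and was 1.41 higher. The difference for Dusp1 was in this direction within 6 of 6 blocks. Of the feedback list 3 of 4 members compared were at least 1 higher, where 13.7% of all rows were, and 0 at least 1 lower, where 14.4% were. They were Dusp1, Spry1 at 1.22 and Errfi1 at 1.02. No member was 2 apart, and 9 measured members did not pass the filter.

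**Figure D1:**
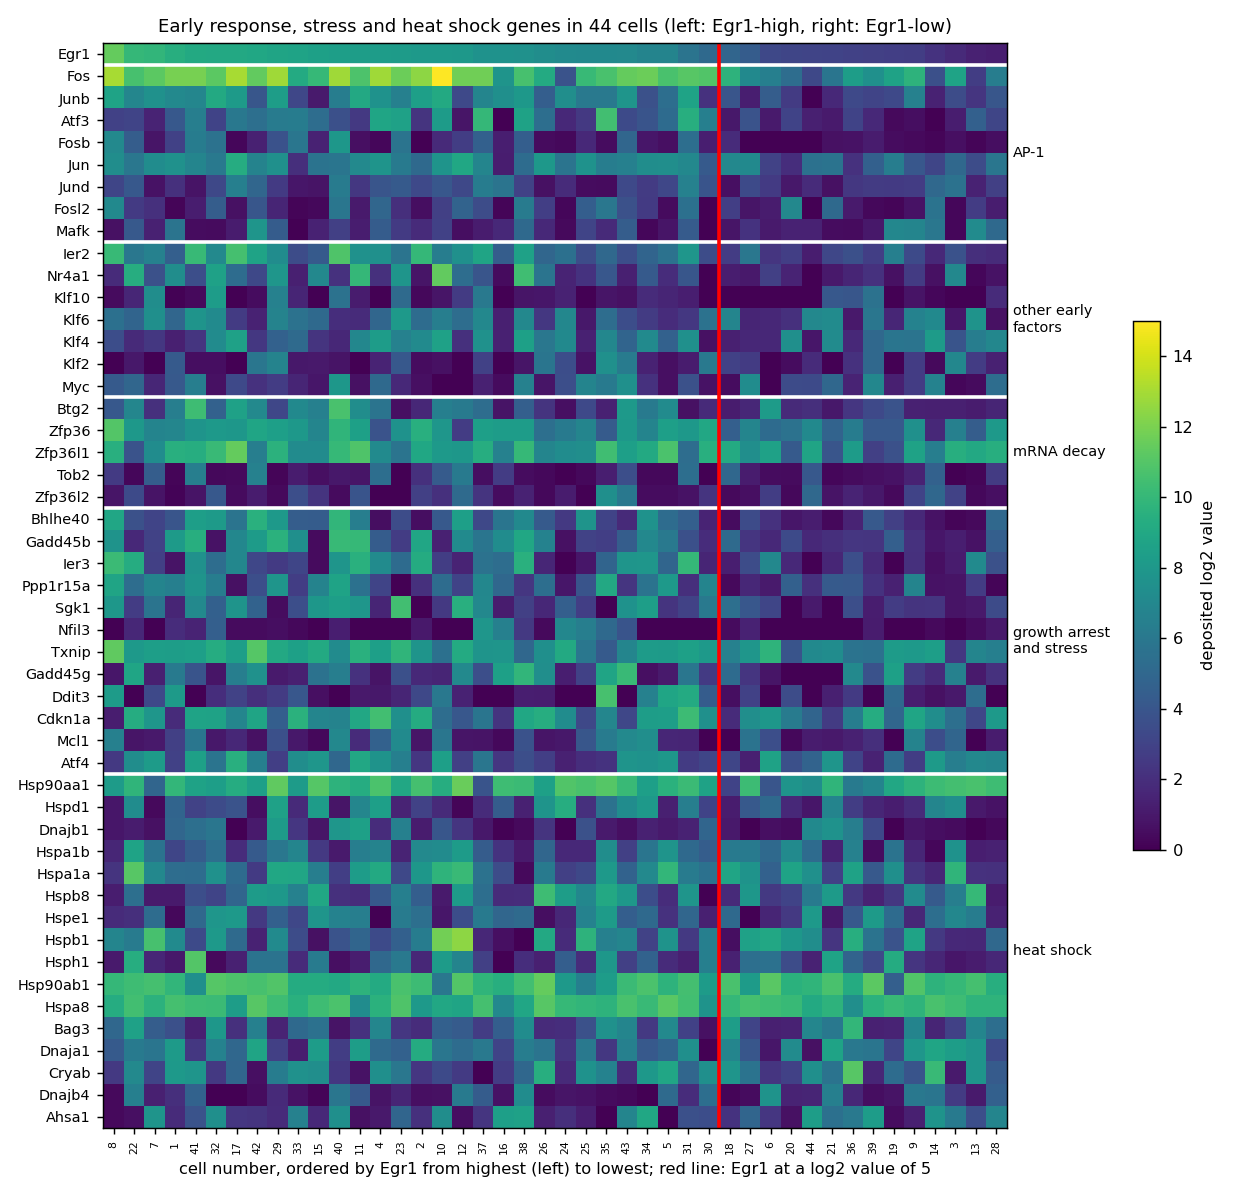
Deposited log2 values of Egr1 and of the early, stress and heat shock genes compared (rows) in each of 44 cells (columns, in order of Egr1 from the highest at the left). The red line divides the 30 Egr1-high cells at the left from the 14 Egr1-low cells at the right: Fos, Junb, Ier2, Gadd45b and Bhlhe40 are brighter at the left, and the heat shock rows show no step at the line.

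**Figure D2:**
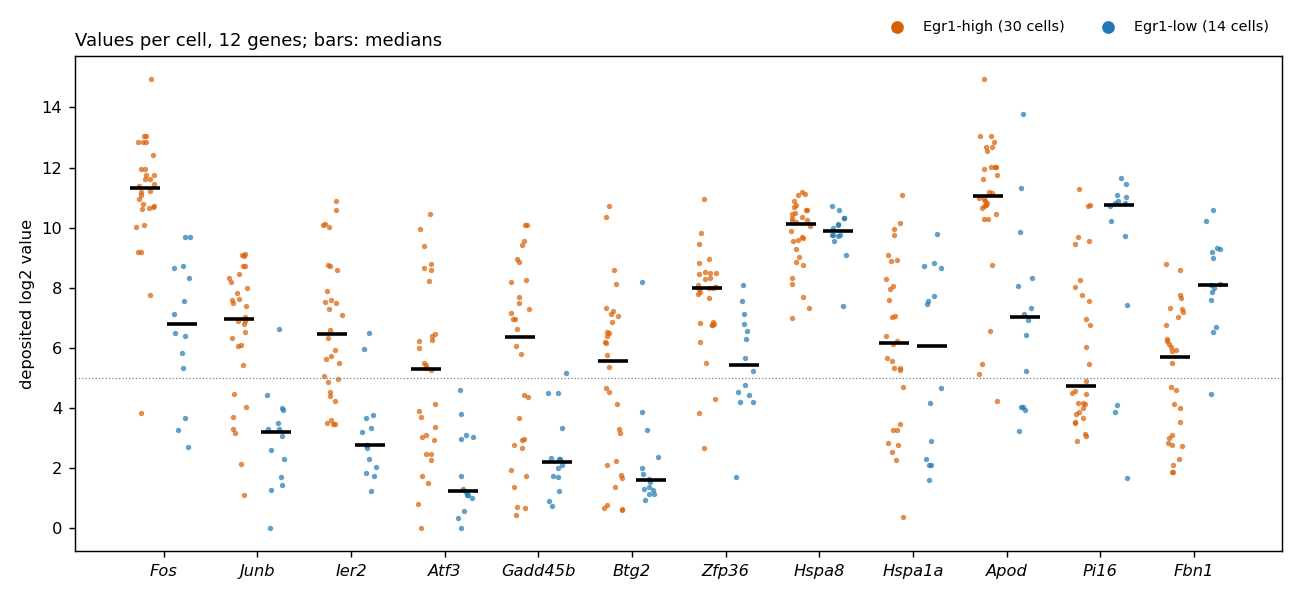
Deposited log2 value of 12 genes in each cell (points, spread sideways at random), with Egr1-high cells left of Egr1-low cells for each gene, black bars at the medians and a dotted line at 5. Fos lies around medians of 11.31 and 6.81 with overlap of the points, Hspa8 around 10.12 and 9.88, and Pi16 around 4.74 and 10.77.

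The promoters of 4 of the early genes that were at least 2 higher are given to show which of the searched motifs stand close to their start sites. Promoters holding a match were put first in choosing them, so the matches shown do not describe the early genes as a set. Junb and Atf3, 3.56 and 3.23 higher, are not among the genes found with a match and are not shown. They run from 250 bases before to 50 bases after the start in the RefSeq annotation of GRCm38.p6, read 5′ to 3′ on the gene's own strand, with motif matches in capitals. Nr4a1 holds an EGR site in its reverse orientation from -60 to -52. Btg2 holds a cAMP response element from -166 to -159 and an EGR site from -131 to -123, and Zfp36 an EGR site from -105 to -97 and a CArG box from -58 to -49. Fos holds no match to any of the searched motifs in this window.
Fos, chr12:85473640-85473939, plus strand: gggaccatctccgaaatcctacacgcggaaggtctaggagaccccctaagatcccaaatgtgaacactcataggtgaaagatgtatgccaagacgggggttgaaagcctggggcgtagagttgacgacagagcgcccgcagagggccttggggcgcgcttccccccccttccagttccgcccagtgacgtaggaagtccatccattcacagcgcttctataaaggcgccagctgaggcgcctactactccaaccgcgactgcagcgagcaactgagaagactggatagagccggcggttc
Nr4a1, chr15:101266596-101266895, plus strand: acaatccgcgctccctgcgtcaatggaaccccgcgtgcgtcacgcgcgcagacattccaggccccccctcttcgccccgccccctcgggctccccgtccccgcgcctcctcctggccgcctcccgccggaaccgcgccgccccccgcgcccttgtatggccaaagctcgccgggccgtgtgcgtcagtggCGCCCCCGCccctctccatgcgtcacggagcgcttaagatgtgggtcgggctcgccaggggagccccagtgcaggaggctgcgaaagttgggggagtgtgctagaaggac
Btg2, chr1:134079106-134079405, minus strand: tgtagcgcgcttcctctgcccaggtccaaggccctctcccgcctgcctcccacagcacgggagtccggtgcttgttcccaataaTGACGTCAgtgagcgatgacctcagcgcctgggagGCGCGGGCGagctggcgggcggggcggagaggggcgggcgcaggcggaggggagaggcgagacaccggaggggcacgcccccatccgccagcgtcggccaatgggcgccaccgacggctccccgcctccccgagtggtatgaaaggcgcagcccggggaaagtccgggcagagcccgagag
Zfp36, chr7:28379179-28379478, minus strand: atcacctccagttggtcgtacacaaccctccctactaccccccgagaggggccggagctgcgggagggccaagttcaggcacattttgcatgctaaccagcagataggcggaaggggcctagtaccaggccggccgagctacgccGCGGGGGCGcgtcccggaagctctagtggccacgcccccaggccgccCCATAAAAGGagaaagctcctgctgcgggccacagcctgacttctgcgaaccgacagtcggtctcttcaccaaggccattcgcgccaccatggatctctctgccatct

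The motifs were the EGR site GCGNGGGCG, the cAMP response element TGACGTCA, the AP-1 site TGANTCA, the CArG box and the heat shock element, each on both strands. A promoter was found for 62 of the 77 rows at least 2 higher and for 61 of the 87 at least 2 lower. Each of these genes counted as holding a motif when any of its promoters did, whereas shares of all promoters are counted per promoter. The EGR site stood in 15 of the 62 genes (24.2%) and in 8 of the 61 (13.1%). It stood in 11.9% of the 3307 rows compared that had a promoter. Counted per promoter, it stood in 5.55% of all 32851 promoters, which belong to 27025 genes. In the 3 lists of early genes it stood in 8 of 16, those of Fosb, Fosl2, Mafk, Nr4a1, Klf2, Klf4, Zfp36 and Btg2, and in 3 of 12 of the heat shock list. Of these 8 early genes Fosl2, Mafk, Klf2 and Klf4 differed by less than 1 between the cells. The AP-1 site stood in 4 of the 62 genes (6.45%) and 6 of the 61 (9.84%), against 6.26% of rows compared. The cAMP response element stood in 3 and 1, those of Gpm6b, Btg2 and Ppp1r15a and that of Dguok, against 3.84% of rows compared, and 1.79% of all promoters. The CArG box stood in 1 and 0, that of Zfp36, against 1.78% of rows compared and 1.63% of all promoters, and the heat shock element in 1 and 1, against 0.907% and 0.603%. A match is a description of the letters in the window and not of binding, and Ier2 had no entry in the promoter table.

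Growth arrest and stress genes were mostly higher. Of 12 compared, 5 were at least 2 higher, where 1.8% of all rows were, and 9 at least 1 higher, where 13.7% were. None was at least 1 lower, where 14.4% of all rows were, and the median difference was 1.42, or 0.90 over the 19 measured. Nfil3, 1 of the 9, was 1.42 higher and reached 5 in 5 Egr1-high and 0 Egr1-low cells. It passed the filter only through Egr1-high cells. Gadd45b, a stress sensor upstream of p38 MAP kinase, had values of 0.46, 6.36 and 10.10 in Egr1-high cells, against 0.75, 2.21 and 5.17 in Egr1-low cells. It reached 5 in 17 and 1 cells and was 3.04 higher. Bhlhe40, a basic helix-loop-helix repressor, reached 5 in 14 and 1 cells and was 3.42 higher, in 6 of 6 blocks. Ier3, an early survival protein, was 2.67 higher with 16 and 2 cells at 5 or more. Ppp1r15a (GADD34), which lets eIF2alpha be dephosphorylated, was 2.62 higher with 17 and 1 cells, and the kinase Sgk1 was 2.50 higher with 13 and 1. In each of these 5 genes at most 2 of 14 Egr1-low cells were at 5 or more. The cell cycle inhibitor Cdkn1a was common in both, in 23 of 30 and 9 of 14 cells, with a difference of 0.90 that was -0.04 within blocks. Txnip, a thioredoxin-binding protein, was 1.42 higher with 29 and 12 cells at 5 or more, and Atf4 0.33 higher.

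NF-kB and early cytokine genes mostly had positive differences, 11 of 12 compared, where 50.9% of all rows did. Of 12 compared, 3 were at least 2 higher, where 1.8% of all rows were, and 7 at least 1 higher, where 13.7% were. At least 1 lower was 1, where 14.4% of all rows were. Cebpd, a C/EBP family transcription factor of the acute-phase response, reached 5 in 15 of 30 and 0 of 14 cells and was 3.13 higher, and passed the filter only through Egr1-high cells. Icam1, a leukocyte adhesion molecule, was 2.28 higher with 10 and 1 cells at 5 or more. Socs3, which inhibits cytokine signalling, was 2.23 higher with 21 and 4 cells. Nfkbia, the inhibitor of NF-kB that is itself induced by it, was at 5 or more in 20 and 6 cells and was 1.53 higher. Il6 reached 5 in 6 and 0 cells, and so also passed only through Egr1-high cells, and was 1.50 higher, while Csf1 was lower by a difference of -1.14. The median over the list was 1.26 over those compared and 0.42 over the 25 measured.

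Heat shock genes had differences close to those of all rows. Hspa8, the constitutive HSC70, had values of 7.01, 10.12 and 11.17 in Egr1-high cells, against 7.40, 9.88 and 10.71 in Egr1-low cells, was at 5 or more in all 44 cells and differed by -0.07. Hspa1a, the heat-inducible HSP70, had values of 0.39, 6.18 and 11.09 in Egr1-high cells, against 1.61, 6.07 and 9.80 in Egr1-low cells. It reached 5 in 21 of 30 and 7 of 14 cells and differed by 0.55. Hspa1a and its near-identical copy Hspa1b, which differed by 0.59, can share reads, so the values of either are uncertain. Hspb1, a small heat shock protein, differed by 0.14 and the co-chaperone Dnajb1 by 0.68. Of 16 members compared, 0 were 2 apart, 2 were at least 1 higher (Hsp90aa1 at 1.11 and Hspd1 at 1.04) and 1 at least 1 lower (Ahsa1 at -1.02). Over all rows 1.8% were at least 2 higher and 2.04% at least 2 lower, and 13.7% and 14.4% at least 1 higher and lower. The median difference of the list was 0.12, near the 0.02 of all rows.

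The endoplasmic reticulum chaperones and stress genes all had positive differences, 11 of 11, from 0.07 for Pdia4 to 1.55 for the transcription factor Xbp1. Over all rows 50.9% of differences were positive and 13.7% were at least 1 higher. At least 1 higher were Xbp1, Dnajb9 at 1.26, Creld2 at 1.20 and Herpud1 at 1.16, and Hspa5, the main chaperone of this compartment, was 0.66 higher. None of the 11 was higher within every block. Glucocorticoid-responsive genes held 1 of 8 at least 2 higher, the clock gene Per1 at 2.14, where 1.8% of all rows were. At least 1 higher were 3, with Mt2 at 1.22 and the Krüppel-like factor Klf9 at 1.47. Klf9 reached 5 in 8 and 0 cells and passed the filter only through Egr1-high cells. Fkbp5 and Tsc22d3 differed by 0.06 and -0.33. Of 3 oxidative stress genes compared Srxn1 was 1.70 higher, with 8 and 0 cells at 5 or more and its direction thus fixed by the filter, and 7 measured did not pass the filter. Targets of SRF and YAP, factors that answer serum and tension, went both ways, with Cyr61 at 1.80 and Ctgf at 1.68 and with the focal adhesion protein Zyx at -2.47.

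Genes upstream of the response had a median difference of -0.13 over 13 compared. The receptor genes Pdgfra and Pdgfrb were 2.14 and 1.39 higher and Fgfr1 1.08 higher, while Egfr and the lysophosphatidic acid receptor Lpar1 had differences of -1.46 and -1.43. The kinase gene Mapk3 (ERK1) differed by 1.05. Of 7 reported target genes of Egr1 compared, Icam1 alone was at least 2 higher, where 1.8% of all rows were. Thbs1 was 1.38 higher with 5 and 0 cells at 5 or more, its direction also fixed by the filter. Fn1 and Mmp14 had differences of -1.81 and -1.24. F3, which encodes tissue factor, differed by 0.66 and Cd44 by 0.24.

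**Figure D3:**
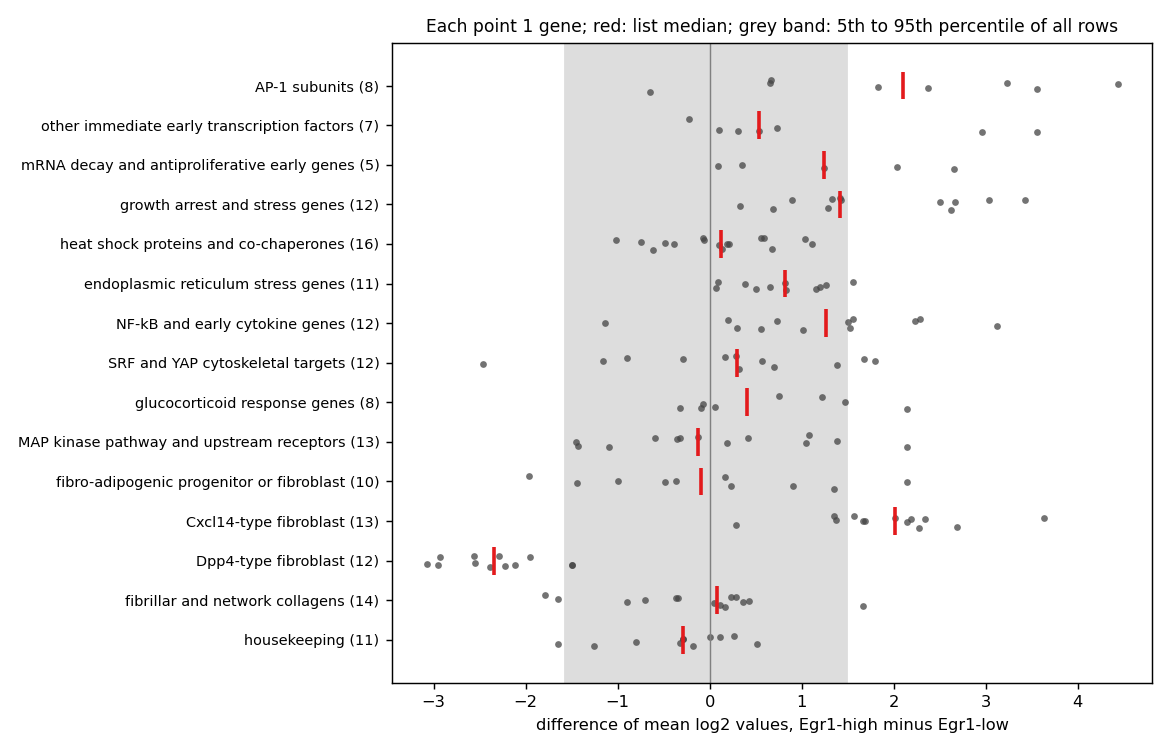
Difference of mean log2 values, Egr1-high minus Egr1-low, for each gene compared (points) by list, with the number of genes in parentheses, red bars at list medians and a grey band from the 5th to the 95th percentile of all 4266 rows (-1.57 to 1.50). AP-1, growth arrest and Cxcl14-type lists have medians of 2.10, 1.42 and 2.02, the heat shock list 0.12 and the Dpp4-type list -2.34.

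Counted per cell, early genes were more numerous in Egr1-high cells, with overlap. Of the 36 genes measured in the AP-1, other early factor and mRNA decay lists, Egr1-high cells had 10.1 ± 2.26 at 5 or more (SD over 30 cells, range 6 to 14), against 5.71 ± 1.64 in Egr1-low cells (SD over 14 cells, range 4 to 9). With growth arrest and heat shock genes added, 74 in all, the counts were 24.9 ± 4.12 (16 to 31) in Egr1-high cells and 17.6 ± 2.62 (13 to 22) in Egr1-low cells. Heat shock genes alone gave 8.57 ± 2.28 (4 to 13) of 19 in Egr1-high cells and 8.64 ± 1.95 (6 to 12) in Egr1-low cells. The ranges overlapped in each of these counts, and the heat shock means differed by less than the spread over cells.

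Fos, Junb, Ier2, Zfp36 and Jun were found at 5 or more together in 16 Egr1-high and 0 Egr1-low cells. These 5 were picked as the strongest early genes of these same cells. Each had the higher mean in Egr1-high cells, so the split follows largely from that choice. A further 7 Egr1-high cells held 4 of these 5 genes, as did 1 Egr1-low cell, cell 27, with Egr1 at 4.35. Cell 18, an Egr1-low cell closer to the division at 4.91, held 2. Cell 31, an Egr1-high cell at 5.77, held all 5. At the other end, cells 13 and 14 held none of the 5, with Fos at 2.71 and 3.69, and cell 39 held 1. No Egr1-high cell held fewer than 2. Cells 30 and 33 held 2 each. Cell 30 had the lowest Egr1 of the Egr1-high cells, while cell 33 had Egr1 at 8.69. Both cells without any of the 5 genes were in block C, which also held cells 16 and 17 with Egr1 at 7.65 and 9.07.

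The rows ranked most like Egr1 over the 44 cells included early genes beside fibroblast and other genes. The ranking uses the same Egr1 values that divided the cells, so it is not separate support for the differences. Spearman's rho with Egr1 was 0.72 for Fos, 0.70 for Ier2, 0.66 for Gpm6b, a membrane proteolipid, 0.60 for Mgp and 0.60 for Junb, and between 0.57 and 0.58 for Podn, Apod, Bhlhe40, Tnfaip8 and Fbln1. The lowest were Col5a1 at -0.64, St3gal2 at -0.62, Zyx at -0.60, Ccdc12 at -0.58 and Fbn1 at -0.58. Of all rows 9 in 10 lay between -0.30 and 0.30. Within the 30 Egr1-high cells alone rho was 0.36 for Fos, 0.41 for Ier2 and 0.26 for Junb. It was 0.11 for Zfp36, 0.07 for Jun and -0.20 for Atf3. The cells share 1 sample and blocks of linked libraries, so these values describe the cells and carry no p.

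Fibroblast subset genes also stood apart between the cells. Both kinds of cell were fibroblast-like, with 9.03 ± 1.30 of 10 measured fibro-adipogenic progenitor or fibroblast markers at 5 or more in Egr1-high cells and 8.50 ± 1.29 in Egr1-low cells (SD over cells). The progenitor receptor Pdgfra was 2.14 higher, with 24 of 30 and 7 of 14 cells at 5 or more, whereas the surface markers Ly6a (Sca-1) and Cd34 had differences of -0.99 and -1.44. Prrx1, whose promoter drives the recombinase, had a median of 5.02 in Egr1-high cells and 5.35 in Egr1-low cells, with a difference of -0.58.

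Genes of Dpp4-type fibroblasts, an adventitial type marked by Pi16 and Dpp4, were lower. Pi16, a secreted peptidase inhibitor, had values of 2.91, 4.74 and 11.28 in Egr1-high cells, against 1.67, 10.77 and 11.65 in Egr1-low cells. Pi16 (chromosome 17, 29317680 to 29330593, plus strand, GRCm38) reached 5 in 14 of 30 and 11 of 14 cells, with a difference of -2.93. Fbn1, the microfibril protein fibrillin 1, reached 5 in 16 and 13 cells, with a difference of -3.07, and the guidance molecule Sema3c in 13 and 13 cells, with -2.95. Dpp4 itself, a surface peptidase, reached 5 in 7 and 8 cells, with -2.12. All 12 Dpp4-type members compared were at least 1 lower, where 14.4% of all rows were, and 9 at least 2 lower, where 2.04% were. The median of the 12 was -2.34. A median of 5 of 14 such genes per cell was at 5 or more in Egr1-high cells (range 1 to 12) and of 10 in Egr1-low cells (range 0 to 13). Their summed level had a median of 1284 FPKM in Egr1-high cells (range 140.3 to 8575) and of 6857 FPKM in Egr1-low cells (range 109 to 14596).

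Genes of Cxcl14-type fibroblasts were higher. Apod, a lipid carrier, had values of 4.25, 11.07 and 14.95 in Egr1-high cells, against 3.23, 7.02 and 13.78 in Egr1-low cells, and was 3.64 higher, second to Fos among the higher rows. Smoc2, a matricellular protein, was 2.69 higher with 26 of 30 and 6 of 14 cells at 5 or more, and Apoe, Inmt, Ltbp4, Lpl and Penk were 2.34, 2.27, 2.19, 2.15 and 2.02 higher. Of 13 members 7 were at least 2 higher, where 1.8% of all rows were, and 12 at least 1 higher, where 13.7% were. At least 1 lower were 0, where 14.4% of all rows were, and the median was 2.02. Col15a1, 1 of the 12, reached 5 in 6 Egr1-high and 0 Egr1-low cells, so the filter had fixed its direction. Summed, the 13 members had a median of 13151 FPKM in Egr1-high cells (range 2087 to 57213) and of 3072 FPKM in Egr1-low cells (range 123 to 20289).

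To set the early genes beside the fibroblast subset, cells were divided by whether at least 7 of the 14 Dpp4-type genes were at 5 or more, which held for 11 Egr1-high and 11 Egr1-low cells. In these the count of early genes was 10.6 ± 2.66 (7 to 14) in Egr1-high cells and 6.09 ± 1.64 (4 to 9) in Egr1-low cells. In the remaining cells it was 9.84 ± 2.01 (6 to 14) in 19 Egr1-high cells and 4.33 ± 0.577 (4 to 5) in 3 Egr1-low cells. The mean early gene count was higher in Egr1-high cells on either side of the division by Dpp4-type genes. The part of the fibroblast subset in this difference was not tested. Among the 11 and 11 cells Junb was 4.27 higher, Atf3 4.11, Fos 3.75 and Ier2 2.96, and among the 19 and 3 cells they were 2.37, 2.85, 3.58 and 4.11 higher. Btg2 was 0.85 higher in the first and 2.33 in the second comparison.

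The cells were divided on Dpp4-type genes, whose list had medians of -1.50 and -0.13 in the 2 comparisons, and the Cxcl14-type list had medians of 2.33 and 0.71. The second comparison rests on 3 Egr1-low cells, cells 6, 18 and 36, and in it 29.8% of all rows were at least 1 higher and 24.2% at least 1 lower, against 19.2% and 19.8% in the first.

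**Figure D4:**
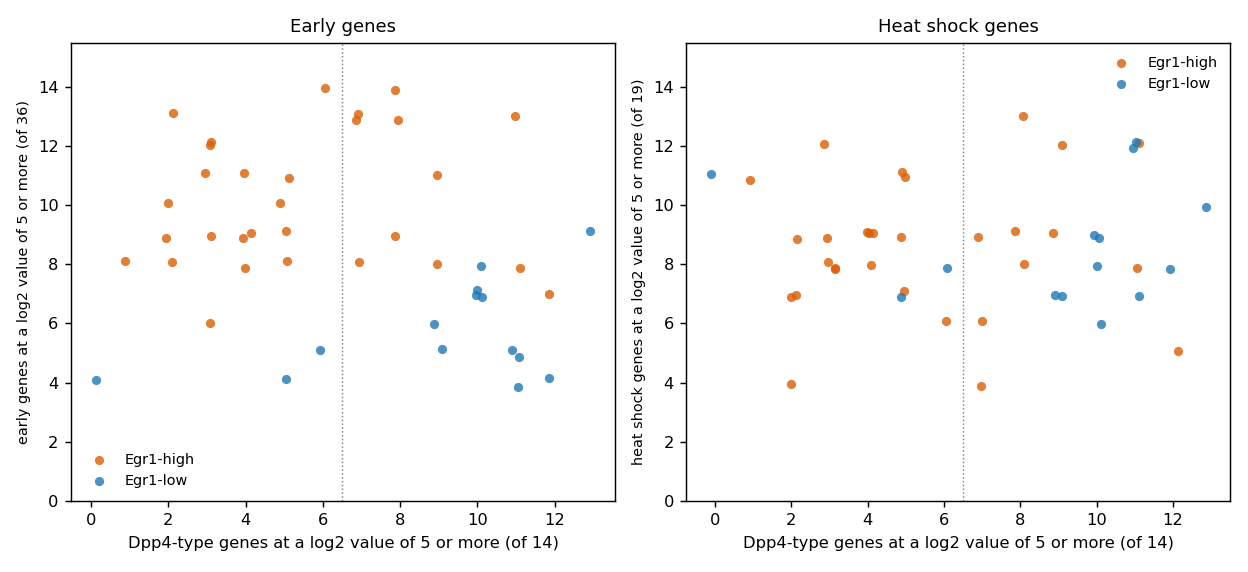
Number of early genes (left panel, of 36) and heat shock genes (right panel, of 19) at 5 or more in each cell against its number of Dpp4-type genes (of 14), with points moved slightly at random and a dotted line between 6 and 7. Left of the line Egr1-high cells hold 6 to 14 early genes and Egr1-low cells 4 to 5, right of it 7 to 14 and 4 to 9, and the heat shock counts of the 2 kinds of cell overlap throughout.

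Blocks of linked libraries gave the same directions for the leading early genes. Within the 6 blocks the difference ran from 2.04 to 4.54 for Junb, 1.23 to 5.66 for Ier2 and 0.81 to 4.53 for Atf3, positive in each. Zfp36 and Gadd45b were higher in 5 of 6 blocks, with -0.60 and -0.47 in block D. The mean count of early genes was higher in Egr1-high cells of each block, by 2 in block D and by 7.5 in block E. Averaged within blocks, Junb was 3.31, Ier2 3.47, Atf3 2.81, Gadd45b 3.09, Nr4a1 2.84 and Apod 2.78 higher, and Pi16 and Fbn1 had differences of -2.64 and -2.51. Pi16 was lower in 5 blocks, and its difference was 2.93 in block E. The lone Egr1-low cell of that block, cell 36, held 10 of 11 mural markers and 0 of 14 Dpp4-type genes.

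**Figure D5:**
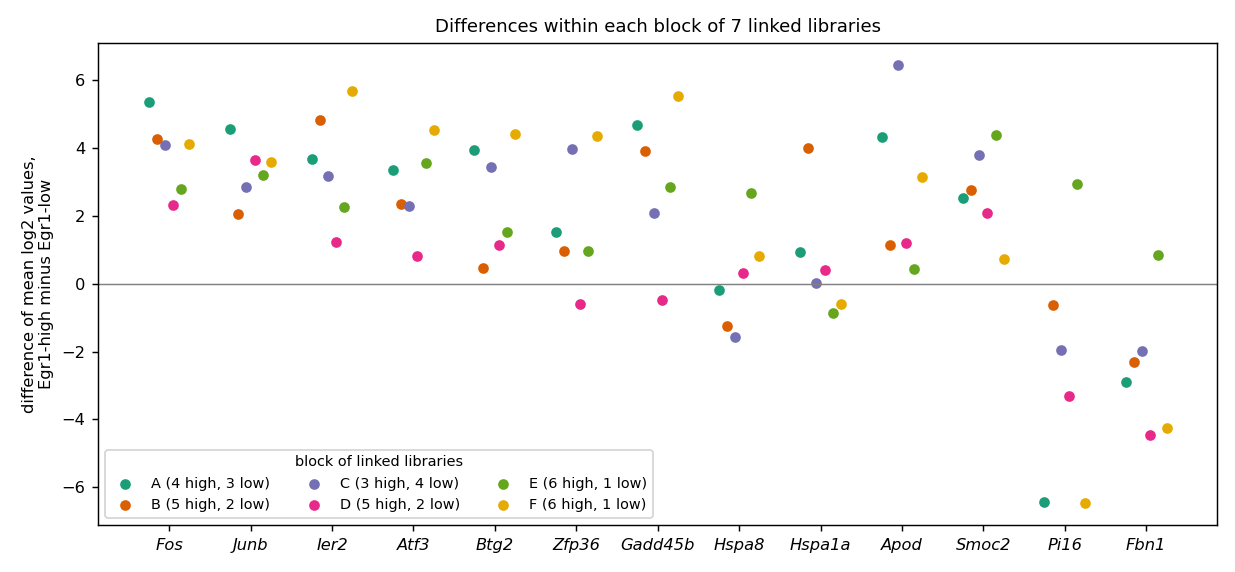
Difference of mean log2 values, Egr1-high minus Egr1-low, of 13 genes within each of 6 blocks of 7 linked libraries (colours, with the number of cells of each kind in the legend). Fos, Junb, Ier2, Atf3 and Btg2 lie above 0 in every block, Hspa8 and Hspa1a on both sides of 0, and Pi16 and Fbn1 below 0 except in block E.

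Markers of endothelial, blood, glial and satellite cells were rare, while tenocyte and myofibre markers were mostly higher in Egr1-high cells. Of 8 endothelial and 4 lymphocyte markers none reached 5 in any cell, and of 8 macrophage, 4 neutrophil, 4 glial and 4 satellite cell markers each cell held at most 1. All such cells were Egr1-high. The mural list had a summed median of 160 FPKM in Egr1-high cells (range 3.16 to 7812) and of 158 FPKM in Egr1-low cells (range 11.6 to 31068). At the top of these ranges were mural-like cells, cell 30 with 9 of 11 markers among Egr1-high cells and cell 36 with 10 among Egr1-low cells. Tenocyte genes had a summed median of 190 FPKM in Egr1-high cells (range 16.2 to 23468) and of 98.1 FPKM in Egr1-low cells (range 1.29 to 766). The 3 cells with at least 6 of 8 tenocyte markers, cells 8, 17 and 40, were all Egr1-high. Of 6 tenocyte genes compared 6 had positive differences and 5 were at least 1 higher, with a median of 1.34. Of 7 myofibre genes 6 were positive and 4 at least 1 higher, with a median of 1.01. Over all rows 50.9% of differences were positive and 13.7% were at least 1 higher. Of those at least 1 higher, Tnmd (tenocyte) and Mb and Tcap (myofibre) each reached 5 in 5 Egr1-high and 0 Egr1-low cells. The filter had thus fixed the direction of Tnmd, Mb and Tcap. Myofibre genes had a summed median of 214 FPKM in Egr1-high cells (range 15.8 to 6566) and of 128 FPKM in Egr1-low cells (range 1.29 to 623), and cell 31, an Egr1-high cell, held 10 of 11. Leaving out the 5 cells with at least 4 of 8 tenocyte or 6 of 11 mural markers left the mean counts of early and stress genes per cell 7.35 apart, against 7.22 with all cells. Cell 31, with its myofibre markers, stayed in this count, and the part of these markers in the differences was not tested.

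The rows furthest apart outside these lists were as follows. Higher in Egr1-high cells were Mgp, an inhibitor of calcification, by 3.59, Id3, an inhibitor of basic helix-loop-helix factors, by 3.43, Gpm6b by 3.13, Podn, a small leucine-rich proteoglycan, by 3.01, the kinase gene Snrk by 2.95 and the protocadherin Pcdhga8 by 2.97. Gpm6b and Snrk reached 5 in 11 and 12 Egr1-high cells and in 0 Egr1-low cells, so the filter had fixed their direction. Pcdhga8 shares exons with its gene cluster, so its value is uncertain. Mgp had values of 5.01, 12.43 and 13.78 in Egr1-high cells, against 3.75, 7.86 and 11.48 in Egr1-low cells. The lowest differences were those of Pla1a, a phospholipase, at -3.74 and Igfbp5, an IGF-binding protein, at -3.73. Igfbp5 reached 5 in 5 of 30 and 10 of 14 cells, with medians of 2.27 and 6.67, and was lower in 6 of 6 blocks. Dguok, Agpat4, Hn1, Ccdc12, Pigp, Lims2, Gas7, Adamtsl1, Ece1 and Has2os followed, from -3.31 to -2.65. Has2os is antisense to Has2, and no source used here says whether reads were counted by strand, so its value is uncertain. Housekeeping genes had a median difference of -0.29, from -1.65 for Pgk1 to 0.51 for Tbp, with -0.18 for Eef1a1 and 0.01 for B2m.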

How the data were processed

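RNA of 44 picked single cells was sequenced from Nextera XT libraries, per the labels' protocols. The authors deposited 1 table of log2 values, with 12745 rows and 44 cells, whose name gives FPKM. TopHat2, Cufflinks and GRCm38 were used, per the submitters' processing notes, whose versions no source used here gives. The log base and the added 1 were inferred from the values, which sum on the linear scale to between 564554 and 579854 in every cell. Depth is unknown.

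For a symbol with several rows, that of the highest mean was used, giving 12707 symbols. A reference name was found for the IDs of 12711 rows, 18 symbols turned into dates were corrected by ID, and no 2 cells were identical. A threshold of 5 (31 FPKM) divided the cells and counted a gene as detected. Rows at 5 or more in at least 5 cells were compared by the difference of mean log2 values, Egr1-high minus Egr1-low, and a row was called at a difference of 2. Differences are on the log2(FPKM + 1) scale, which understates those of low genes. Cells count as 1 sample, so no p-value was computed. Doublets were not called, since cells were picked by hand.

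Libraries were called linked where their rank correlation, taken over alternate rows, exceeded 0.541, a value set by Otsu's method. The calculations used Python 3.11.15, pandas 2.3.3, numpy 2.4.6 and scipy 1.17.1, and were tested on simulated data. The cells, thresholds and 28 gene lists (342 genes, 324 measured) were chosen with earlier results of these data known. The text names, per list, the members furthest apart and closest, the 15 highest and 15 lowest rows, the rows most and least like Egr1, and 30 further genes chosen by name. Other list members named, such as Txnip, Atf4, Il6, Csf1, Fgfr1, Mapk3, Lpl, Penk and Serpinf1, were chosen after their values were seen. Genes of the lists without a row, such as Egr3, Egr4, Dusp4, Dcn and Pax7, are not analysed here, and 1 list member is not reported here. Alternatives were other Egr1 thresholds, the extremes of Egr1, a floor at 5, differences within blocks, leaving out blocks or cell types, medians, pseudocounts, filters and call sizes. Leaving out the 2 cells in no block was added after seeing the data.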

Additional observations from a re-analysis of the deposited data

How the results depend on the processing

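No paired analysis was possible because all cells belong to 1 group with no replicate numbers shared between groups. The counts of rows 2 apart depended on the setting, against 77 higher and 87 lower as reported. With values under 5 set to 5 they were 7 and 7, with a pseudocount of 0.1 203 and 217, with a pseudocount of 10 14 and 14, and by differences of medians 156 and 279. An Egr1 threshold of 6 left 50 lower. The 11 highest against the 11 lowest cells by Egr1 gave 223 and 232. Fewer cells also gave more: 331 and 409 among cells with fewer than 7 Dpp4-type genes (19 and 3 cells), and 197 and 186 among those with at least 7 (11 and 11). At 1 apart there were 585 and 615, and at 3 apart 12 and 7. Leaving out 1 block gave 70 to 112 higher and 97 to 123 lower.

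The Dpp4-type median of -2.34 was -3.25 between the 11 highest and 11 lowest cells, -1.64 with values under 5 set to 5, -3.07 without block E, -0.13 with fewer than 7 Dpp4-type genes, -1.50 with at least 7, -2.95 by medians and -1.79 with a pseudocount of 10. The Cxcl14-type median of 2.02 was 0.71 with fewer than 7 Dpp4-type genes. In that setting, whose cells were chosen on these genes, Pi16 (1.87), Dpp4 (0.32), Gas7 (0.22) and Adamtsl1 (0.017) reversed. The early and stress count per cell, 7.22 apart, stayed between 6.43 and 7.82 without any 1 block and was 3.80 apart at a threshold of 1. It is not altered by setting values under 5 to 5. The AP-1 median stayed between 1.88 and 2.38, and the heat shock median between -0.16 and 0.20, without any 1 block. Of 1007 alternative values of named differences, 967 kept their sign and moved by less than 1 SD over cells, 6 moved further, and 34 changed sign. Apart from the 4 above, these were 30 values of 10 genes whose reported differences were under 1 (Cdkn1a, Dnajb1, Hspa1a, Hspa1b, Hspa8, Hspb1, Klf4, Klf6, Ly6a and Prrx1). The 1007 values cover only part of the genes named in the text. Among cells with fewer than 7 Dpp4-type genes, other named differences of more than 1 also changed sign. They include Fn1 (1.73), Bgn (-1.08), Spry1 (-1.09), Errfi1 (-0.81), Egfr (0.96), Pdgfrb (-0.42), Penk (-0.57) and Fbln1 (-0.14). With values under 5 set to 5, Fosb was 0.30, Gpm6b 0.83 and Cebpd 0.70 higher. Other causes of these changes were not tested. Unknown depth and carry-over between libraries limit what values under 5 can show.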

Other observations

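Matrix genes, a few of which also stand in the Cxcl14-type list (Lum, Col15a1 and Col4a1), were split between the cells. Of 19 matrix genes compared, 3 were at least 2 higher in Egr1-high cells, where 1.8% of all rows were. They were Mgp by 3.59, the elastic fibre protein Fbln1 by 2.77 and the proteoglycan Bgn by 2.38. Fbln1 was at 5 or more in 19 of 30 Egr1-high and 3 of 14 Egr1-low cells, and Bgn in 28 and 7. Fn1, which encodes fibronectin, the protease gene Mmp14 and the inhibitor gene Timp2 had differences of -1.81, -1.24 and -1.21. Serpinf1, a secreted serpin, was at 5 or more in all 44 cells and was 0.90 higher, in 6 of 6 blocks. Of 14 collagens 11 were within 1 of each other between the cells, among them Col1a1 at 0.23, Col1a2 at 0.17 and Col3a1 at -0.36. The exceptions were Col15a1 at 1.66, which reached 5 in 6 Egr1-high and 0 Egr1-low cells and so passed the filter only through Egr1-high cells, Col5a1 at -1.79 and Col14a1 at -1.65. Col5a1 was lower in 6 of 6 blocks and had the lowest rho with Egr1, -0.64 over 44 cells and -0.60 within the 30 Egr1-high cells.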
